A study of Mus musculus with 4 samples.

Results

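Claudins and their partners at the tight junction were followed as 10 genes: the claudin genes Cldn2, Cldn3, Cldn4, Cldn7, Cldn8, Cldn15 and Cldn23, the occludin gene Ocln, and the scaffold genes Tjp1 and Tjp3. They were taken by symbol from the 19308 genes counted in all 4 libraries, and all 10 were found and passed the filter on low counts. Their transcripts were counted in RNA-seq libraries of total RNA from mouse colonic mucosa, with 2 libraries from mice lacking Itch (Itch KO), whose mucosa was described as inflamed, and 2 from wild-type (WT) C57BL/6 mice. Itch encodes a HECT-type ubiquitin ligase. The labels give the state of all 4 samples as inflammation, while the protocol names only the knockout mucosa as inflamed. They give neither age, nor the strain of the Itch KO mice, nor how the Itch allele was made, and do not state whether replicates are separate animals. The p-values below therefore reflect only library-to-library spread, which may be technical.

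Tight junctions close the gap between neighbouring epithelial cells just below their apical surface. Claudins are membrane proteins that form the strands, and the claudins present set what the strands let through: claudin-2 and claudin-15 form pores for small cations, whereas claudin-3, claudin-4 and claudin-8 are counted among the sealing claudins. Occludin lies in the same strands, and the zonula occludens proteins encoded by Tjp1 and Tjp3 bind the strands to actin from the cytoplasm. In inflamed colon a shift from sealing claudins to claudin-2 is a known feature of barrier loss in human disease, and the comparison of pore-forming with sealing claudins between Itch KO and WT mucosa addresses that balance.

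Total counts over the shared genes were 8181193 and 9463759 in the Itch KO libraries and 9674531 and 12199709 in the WT libraries. Itch stood at 11.9 and 13.4 CPM (read counts per library size, scaled with TMM factors) in Itch KO libraries, against 204 and 183 CPM in WT libraries. Epithelial transcripts were present in all 4 libraries. The summed level of 12 epithelial genes was 2384 and 1852 CPM in Itch KO libraries, against 2125 and 1848 CPM in WT libraries. All 12 overlapped between groups, where 44.0% of all genes did. The other lists were uneven. Of 10 leukocyte genes, 10 were higher in both Itch KO libraries, where 30.0% of all genes were (sums of 1176 and 1377 CPM, against 562 and 449 CPM in WT). Squamous epithelium genes summed to 29.5 and 35.9 CPM in Itch KO libraries, against 949 and 14.3 CPM in WT replicates 1 and 2, so that WT replicate 1 stood apart. Small intestine genes summed to 134 and 88.9 CPM in Itch KO libraries, against 253 and 761 CPM in WT libraries, with Sis at 0.369 and 0.31 CPM, against 1.71 and 172 CPM. In bulk mucosa fewer cells of a type and less RNA per cell cannot be told apart.

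None of the 10 claudin and junction genes was called between Itch KO and WT mucosa when all 4 libraries were used. With edgeR's quasi-likelihood test and Benjamini-Hochberg adjustment over 16956 genes, 0 of the 10 had an adjusted p below 0.05, where 0.00% of all genes did. Itch itself was not called by edgeR, at a log2 fold change of -3.93 and an adjusted p of 0.0922. That was the smallest adjusted p of all genes, so edgeR at this threshold separated no gene, Itch included. DESeq2 did call Itch (adjusted p = 3.95e-56). At an unadjusted edgeR p below 0.05 there were 0 of the 10 members, against 10.2% of all genes higher and 9.52% lower in Itch KO. DESeq2 also called 0 of 10, against 5.35% of all genes higher and 4.85% lower, and limma voom called 0. Both Itch KO libraries lay above both WT libraries for 1 member, Cldn4, where 30.0% of all genes did so, and below them for 2, Ocln and Tjp1, where 26.0% did. The other 7 overlapped between groups, where 44.0% of all genes did. The median log2 fold change over the 10 was -0.04, beside 0.01 over all genes, and the values ran from -0.78 for Tjp1 to 0.36 for Cldn4.

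**Figure D1:**
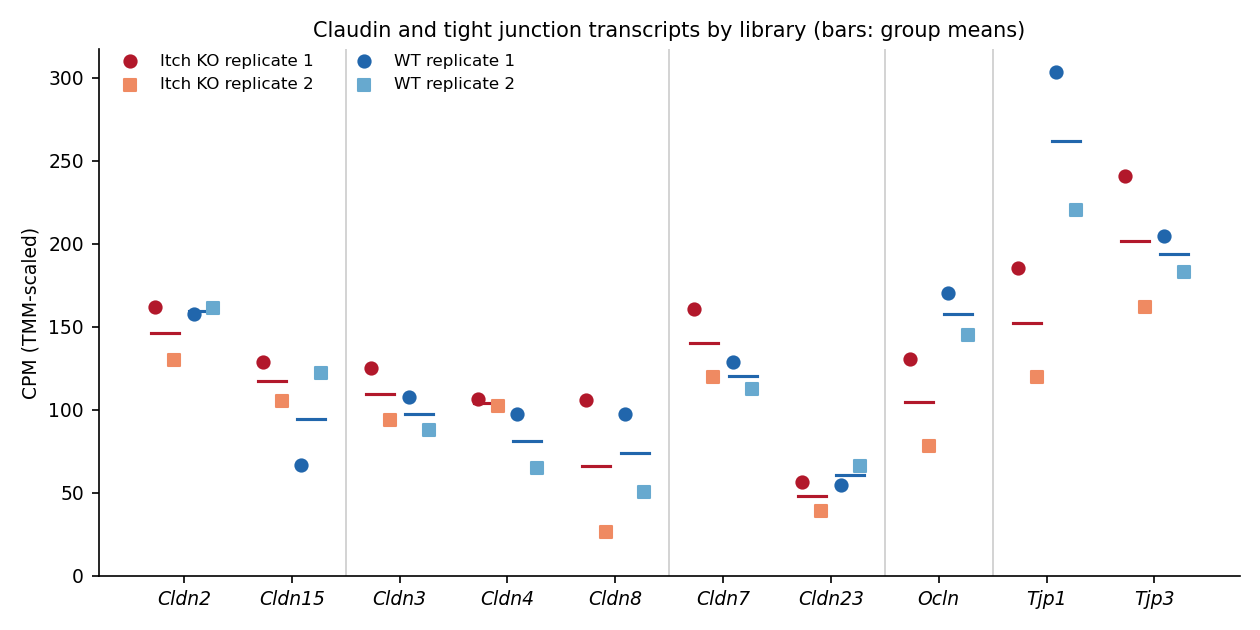
Level of each claudin and tight junction gene in CPM (vertical axis, from 0) in the 4 libraries, Itch KO in red and left of WT in blue, with short bars at the group means (n = 2 each) and grey lines between the roles. Tjp1 and Ocln are lower in both Itch KO libraries, Cldn4 is slightly higher in both, and Cldn8 spans 26.1 to 106 CPM within the Itch KO group alone.

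Of the cation pore formers, Cldn2 (ENSMUSG00000047230, GRCm38 chromosome X, 139800828 to 139811386, plus strand, protein-coding) is the claudin most often named as raised in inflamed gut. Cldn2 was at 162 and 130.2 CPM in Itch KO libraries, against 158 and 161 CPM in WT libraries. Itch KO replicate 1 lay just above both WT libraries and Itch KO replicate 2 below them, so the groups overlapped. The means were 146 ± 22.3 CPM in Itch KO and 159 ± 2.54 CPM in WT (SD, n = 2 each). Expressed as log2 fold change this is -0.13 (SE 0.16, edgeR adjusted p = 0.671), and 15 alternative settings gave values between -0.30 and 0.03.

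Cldn15 (ENSMUSG00000001739, chromosome 5, 136966616 to 136975858, plus strand) encodes the cation pore of the small intestine, which is also made in colon. Its levels were 129 and 105 CPM in Itch KO libraries, against 66.7 and 122 CPM in WT replicates 1 and 2. The low value of WT replicate 1 set the spread: WT replicate 2 held 1.83 times as much. The log2 fold change of 0.31 (SE 0.33, edgeR adjusted p = 0.623) became -0.04 without WT replicate 1. Cdx2, a homeobox factor of intestinal identity, was low in that library too, at 130 and 115 CPM in Itch KO libraries against 24.3 and 140 CPM in WT replicates 1 and 2, as squamous genes were high there. Cdx2 is one of the 12 epithelial genes, and the other 11 were higher in WT replicate 1 than in WT replicate 2. The part of these genes in the Cldn15 value was not tested.

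Among the sealing claudins, Cldn3 (ENSMUSG00000070473, chromosome 5, 134986214 to 134987472, plus strand) was the densest transcript of the 10. It was at 125 and 93.8 CPM in Itch KO libraries, against 107 and 87.7 CPM in WT libraries, which overlap (log2 fold change 0.17, SE 0.20, edgeR adjusted p = 0.669). When library scale was set by the epithelial list instead of TMM, that value was -0.01. Antisense exons of Wbscr25 cover 3.18% of its exonic bases, and whether the counting used strand is not given in the sources used here.

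Cldn4 (ENSMUSG00000047501, chromosome 5, 134945119 to 134946934, minus strand), which lies close to Cldn3, was the only member with both Itch KO libraries above both WT libraries. It was at 106 and 102 CPM in Itch KO, against 97.2 and 65.0 CPM in WT. The gap between the lower knockout and the higher WT value was smaller than the gap between the WT libraries. The means were 104 ± 2.78 CPM in Itch KO and 81.1 ± 22.7 CPM in WT (SD, n = 2 each), a log2 fold change of 0.36 (SE 0.23, edgeR adjusted p = 0.423). It was 0.10 without WT replicate 2 and 0.70 without WT replicate 1.

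Cldn8 (ENSMUSG00000050520, chromosome 16, 88560828 to 88563183, minus strand), a sealing claudin of colon and distal nephron, varied most. It had 860 and 253 counts in Itch KO libraries, which is 106 and 26.1 CPM, against 97.5 and 50.3 CPM in WT libraries. Itch KO replicate 1 was the highest of the 4 libraries and replicate 2 the lowest, 4.04-fold apart. The means of 65.9 ± 56.2 CPM in Itch KO and 73.9 ± 33.4 CPM in WT (SD, n = 2 each) gave a log2 fold change of -0.17 with an SE of 0.74 (edgeR adjusted p = 0.913). It was -1.50 without Itch KO replicate 1 and 0.53 without Itch KO replicate 2. Posterior hindgut genes, a sign of position along the gut, also differed within groups, summing to 219 and 146 CPM in Itch KO libraries, against 596 and 57.7 CPM in WT libraries, with Hoxb13 at 124 and 62.0 CPM in Itch KO libraries, against 143 and 1.63 CPM in WT libraries. Of these 7 genes, 2 had more CPM in the first than in the second knockout library and 4 had less. All 7 were higher in WT replicate 1 than in WT replicate 2, and 3 lay below WT in both Itch KO libraries (26.0% of all genes). Their part in the Cldn8 values was not tested.

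The promoters of Cldn2 and Cldn4 are shown because these are the pore-forming gene most tied to inflamed gut and the only member above WT in both knockout libraries. Each is the 250 bases before the RefSeq start (GRCm38.p6), 5′ to 3′ on the strand of the gene, Cldn2 at chrX:139800558-139800807 (plus) and Cldn4 at chr5:134946935-134947184 (minus). Capitals mark matches, on either strand, to an E-box bound by Snail-type repressors (CACCTG), an AP-1 site (TGANTCA), a CDX site (TTTATG) or a GC box (GGGCGG).
Cldn2: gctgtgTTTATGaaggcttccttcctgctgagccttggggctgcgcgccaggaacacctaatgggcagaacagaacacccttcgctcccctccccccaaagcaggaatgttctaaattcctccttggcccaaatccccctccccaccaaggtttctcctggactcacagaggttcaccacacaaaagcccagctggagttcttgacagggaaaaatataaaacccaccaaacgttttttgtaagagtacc
Cldn4: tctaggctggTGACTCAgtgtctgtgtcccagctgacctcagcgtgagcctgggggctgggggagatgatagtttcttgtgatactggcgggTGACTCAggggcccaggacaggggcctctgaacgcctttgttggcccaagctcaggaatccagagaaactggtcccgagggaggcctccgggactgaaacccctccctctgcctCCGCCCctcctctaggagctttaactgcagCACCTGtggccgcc
The Cldn2 window held 1 CDX match, a motif found in 10.8% of 32851 mouse windows of the same length. The Cldn4 window held 2 AP-1 matches, 1 E-box and 1 GC box, which are found in 6.75%, 17.2% and 32.7% of windows. A match is a description of the letters and shows no binding. RefSeq windows were matched for 8 of the 10 genes, all but Cldn8 and Cldn23.

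Cldn7 and Cldn23 were kept apart from both classes. Cldn7 (ENSMUSG00000018569, chromosome 11, 69964779 to 69967885, plus strand), which is found along the lateral membrane of colonocytes as well as at the junction, was at 161 and 119.8 CPM in Itch KO libraries, against 129 and 112 CPM in WT libraries (log2 fold change 0.22, SE 0.19, edgeR adjusted p = 0.555). Cldn23 (ENSMUSG00000055976, chromosome 8, 35824712 to 35826559, minus strand), a claudin of differentiated epithelium, was at 56.6 and 39.1 CPM in Itch KO libraries, against 54.8 and 66.3 CPM in WT libraries (log2 fold change -0.34, SE 0.25, edgeR adjusted p = 0.479). Leaving out Itch KO replicate 1 put Cldn23 at -0.63, leaving out Itch KO replicate 2 at -0.09 and leaving out WT replicate 2 at -0.20. Both genes overlapped between groups.

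The balance of pore-forming to sealing claudins did not separate the groups. Reads per length were used, as CPM per kb of exon, since levels of different genes can be compared only per length. Cldn2 and Cldn15 together stood at 109 and 88.8 CPM per kb in Itch KO libraries, against 78.8 and 106 CPM per kb in WT libraries, and the 3 sealing claudins at 203 and 142 CPM per kb, against 180.2 and 127 CPM per kb. Their ratio was 0.539 and 0.626 in Itch KO libraries, against 0.437 and 0.836 in WT libraries, so that both knockout values lay between the WT values. On the log2 scale the mean was -0.78 ± 0.15 in Itch KO and -0.73 ± 0.66 in WT (SD, n = 2 each), a difference of -0.06. The difference was 0.41 without WT replicate 2 and -0.53 without WT replicate 1. No test was run, since 2 libraries against 2 cannot give an exact two-sided permutation p below 0.333.

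The ratio was also taken for the 6 single pairs. Cldn2 over Cldn3 was 0.489 and 0.526 in Itch KO libraries, against 0.556 and 0.696 in WT libraries, and Cldn2 over Cldn4 was 0.832 and 0.695, against 0.886 and 1.35. In these 2 of 6 pairs both knockout libraries lay below both WT libraries. Both pairs share the Cldn2 values, so they are not separate results. Cldn2 has 3325 bases of exon, against 1259 for Cldn3 and 1816 for Cldn4. Over all genes the median log2 fold change was 0.24 at 1 to 2 kb and 0.12 at 2 to 4 kb. The part of length in these ratios was not tested. Cldn15 over Cldn3 was 0.609 and 0.667 in Itch KO libraries, against 0.368 and 0.826 in WT libraries, and Cldn15 over Cldn4 was 1.04 and 0.881, against 0.587 and 1.61. In both of these pairs the knockout values lay between the WT values, as in the summed ratio, with WT replicate 1 the lowest. The ratio of Cldn2 to Cldn8 was 1.09 and 3.53 in Itch KO libraries, against 1.15 and 2.27 in WT libraries. Cldn15 over Cldn8 was 1.35 and 4.48, against 0.758 and 2.70. The ratios to Cldn8 were high in Itch KO replicate 2 and in WT replicate 2, the libraries in which Cldn8 itself was low.

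**Figure D2:**
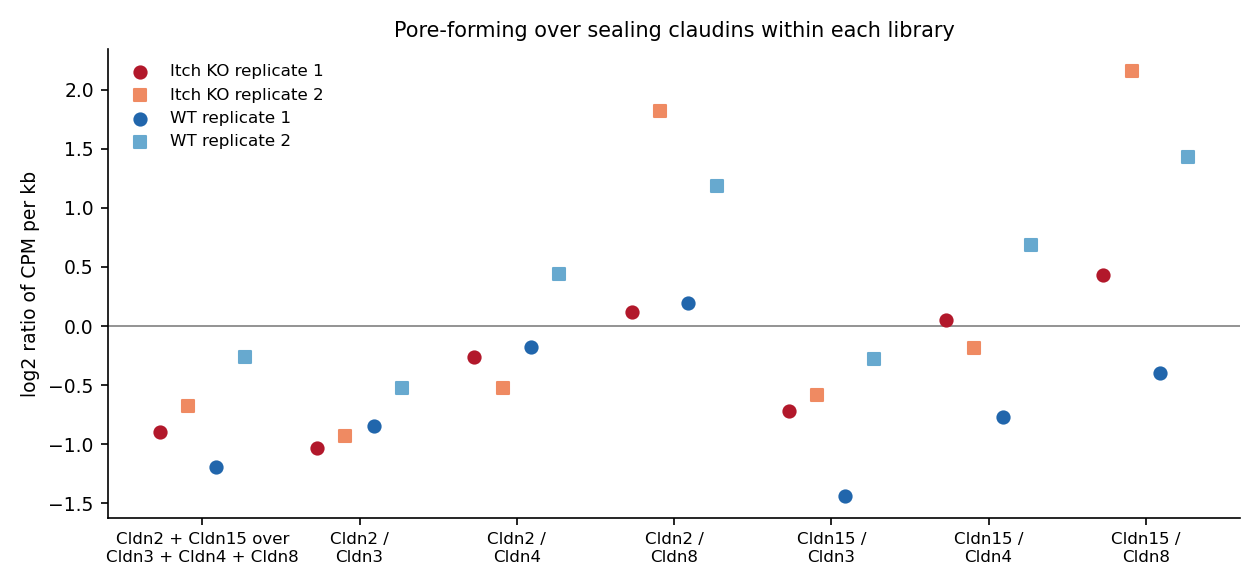
Log2 ratio of CPM per kb of exon (vertical axis) of pore-forming over sealing claudins in each of the 4 libraries, for the summed classes at the left and for the 6 gene pairs, Itch KO in red and WT in blue. For the summed classes the Itch KO libraries, at -0.89 and -0.68, lie between the WT libraries, at -1.19 and -0.26.

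By level per length the order was similar in the groups at its upper end and different at its lower end. Cldn3 came first, with a mean of 87.0 CPM per kb in Itch KO and 77.5 CPM per kb in WT, and Cldn7 second, with 72.0 and 61.8 CPM per kb. In Itch KO the ranges of Cldn3 and Cldn7 overlapped, while in WT they did not. Then came Cldn4, Cldn15, Tjp3 and Cldn2 in Itch KO, at 57.4 to 43.9 CPM per kb with overlapping neighbours, and Tjp3, Cldn2, Cldn4 and Cldn15 in WT, at 52.2 to 44.5 CPM per kb. Tjp1 was last in Itch KO, at 19.5 CPM per kb, and Cldn8 last in WT, at 31.4 CPM per kb, each within the spread of its neighbour.

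Most of the 10 genes were densely covered by reads. When tested genes were split into 10 classes by density, 6 lay in the densest class and 4 in the next. Cldn3 had 810 and 721 counts per kb in Itch KO libraries, against 800 and 855 counts per kb in WT libraries, above the 99th percentile of every library (625 to 712). No gene with at least 1 kb of exon exceeded 1308 counts per kb. The highest values per library were 1150 to 1308 counts per kb, against medians of 83.2 to 128. Whether this narrow range makes differences between dense genes smaller, and with them the claudin ratios, was not tested. In the densest class the interquartile range of log2 fold changes over all genes ran from 0.01 to 0.32, and in the sparsest from -1.26 to 0.32. The log2 fold changes of Cldn3, Cldn7, Cldn15 and Tjp3 lay within the range of the densest class, that of Cldn4 above it and that of Cldn2 below it. In the next class the range was -0.12 to 0.30, and all 4 members there, Cldn8, Cldn23, Ocln and Tjp1, lay below it. The part of density in these values was not tested beyond the fits with its trend removed.

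**Figure D3:**
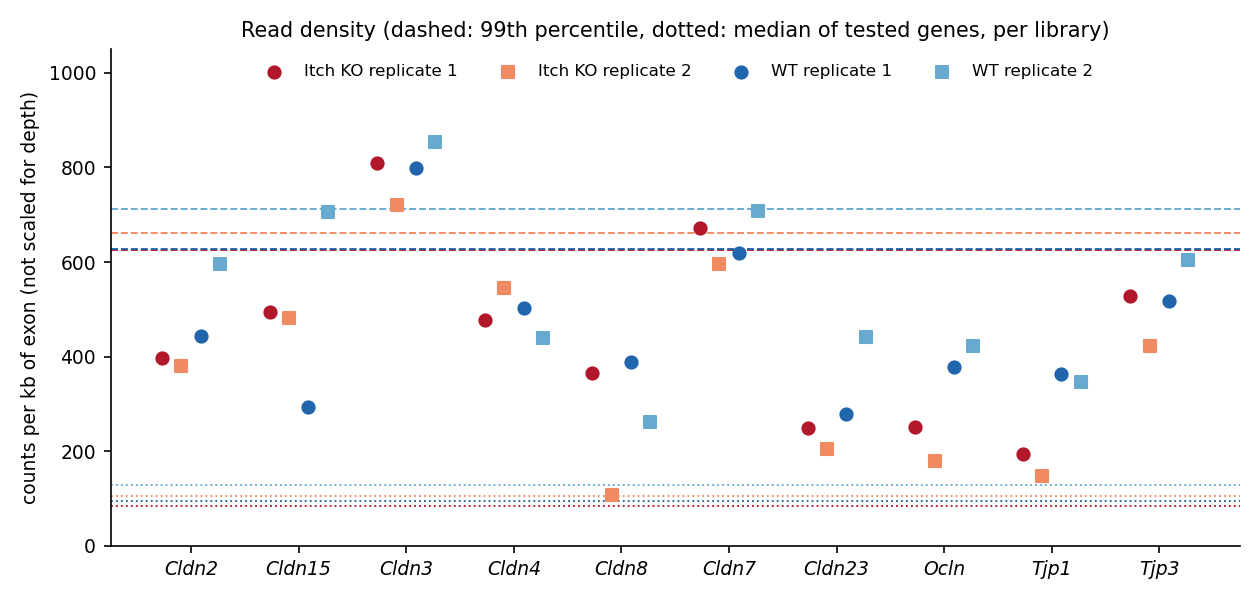
Counts per kb of exon (vertical axis, from 0, not scaled for depth) of the 10 genes in each library, Itch KO in red and left of WT in blue, with the median (dotted) and the 99th percentile (dashed) of tested genes per library. Cldn3 lies above the dashed line of every library, while Cldn8 in Itch KO replicate 2, at 107, is close to the median of that library.

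Ocln (ENSMUSG00000021638, chromosome 13, 100496507 to 100552718, minus strand), the gene of occludin, was lower in both Itch KO libraries than in both WT libraries without passing the test. It was at 130.5 and 78.4 CPM in Itch KO, against 171 and 145 CPM in WT. The knockout libraries lay further apart than the nearest values of the groups. The means were 104 ± 36.8 CPM in Itch KO and 158 ± 18.1 CPM in WT (SD, n = 2 each), with a log2 fold change of -0.60 (SE 0.28, edgeR adjusted p = 0.330).

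Tjp1 (ENSMUSG00000030516, chromosome 7, 65296165 to 65527781, minus strand) encodes ZO-1, the scaffold that binds claudins and occludin. It was at 186 and 119.5 CPM in Itch KO libraries, against 303 and 220.4 CPM in WT libraries, and the groups did not overlap. The means were 153 ± 46.8 CPM in Itch KO and 262 ± 58.7 CPM in WT (SD, n = 2 each). This is a log2 fold change of -0.78 (SE 0.30), with an adjusted p of 0.263 in edgeR and 0.0652 in DESeq2. All 15 alternatives gave Tjp1 and Ocln negative values, from -1.13 to -0.49 for Tjp1 and from -1.01 to -0.26 for Ocln. The size depended on single libraries: without Itch KO replicate 1 Tjp1 was at -1.13 and Ocln at -1.01, and without Itch KO replicate 2 Tjp1 was at -0.49 and Ocln at -0.26. Tjp1 was at -0.51 when WT replicate 1 was left out. DESeq2 without Itch KO replicate 1 called both, with log2 fold changes of -1.15 for Tjp1 (adjusted p = 0.0067) and -1.02 for Ocln (adjusted p = 0.0225). That fit called 3.40% of all genes lower, and the fits without WT replicate 1, WT replicate 2 or Itch KO replicate 2, which called 2.22%, 1.90% and 1.83% of all genes lower, called 0 members.

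The promoters of Ocln and Tjp1 are shown as those of the pair that was lower in both knockout libraries, again 250 bases before a RefSeq start, Ocln at chr13:100552719-100552968 and Tjp1 at chr7:65371245-65371494, both minus strand. The RefSeq start of Tjp1 lies 156537 bases inside the outermost start of the gene in GENCODE M21. Capitals mark the same 4 motifs.
Ocln: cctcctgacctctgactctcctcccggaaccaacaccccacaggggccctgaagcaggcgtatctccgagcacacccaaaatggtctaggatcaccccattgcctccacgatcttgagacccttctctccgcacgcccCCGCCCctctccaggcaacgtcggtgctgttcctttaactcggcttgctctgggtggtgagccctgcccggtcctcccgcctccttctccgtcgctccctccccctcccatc
Tjp1: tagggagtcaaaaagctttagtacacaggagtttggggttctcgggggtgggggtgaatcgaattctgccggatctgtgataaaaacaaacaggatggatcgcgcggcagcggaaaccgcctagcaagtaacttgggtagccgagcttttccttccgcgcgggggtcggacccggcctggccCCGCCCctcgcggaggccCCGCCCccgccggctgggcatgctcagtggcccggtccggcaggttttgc
The Ocln window held 1 GC box and the Tjp1 window 2, and neither held the letters of the E-box, AP-1 or CDX motif. Of all windows, 32.7% hold a GC box.

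Tjp3 (ENSMUSG00000034917, chromosome 10, 81273207 to 81291581, minus strand) encodes ZO-3, a scaffold of epithelial cells. It was at 241 and 162 CPM in Itch KO libraries, against 205 and 183 CPM in WT libraries (log2 fold change 0.06, SE 0.24, edgeR adjusted p = 0.910), so that the WT values lay within the range of the knockout values. The opposite-strand gene Apba3 covers 1.08% of its exonic bases.

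The Itch KO libraries differed from each other in one direction. Each of the 10 genes was higher in the first knockout library (replicate 1) than in the second, from 1.04-fold for Cldn4 to 4.04-fold for Cldn8, while 54.5% of all tested genes were. All 12 epithelial genes were higher in Itch KO replicate 1 as well, and their sum was 1.29-fold higher there, so the direction was not particular to the junction genes. Endothelial genes went the other way, at 533 CPM in Itch KO replicate 1 and 922 CPM in Itch KO replicate 2, against 586 and 407 CPM in WT libraries. Their part in the spread of the junction genes was not tested. Library scale was also set by the epithelial list, which moves the median of all genes by -0.16 on the log2 scale. Tjp1 was then at -0.97 (edgeR adjusted p = 0.0939) and Ocln at -0.79 (edgeR adjusted p = 0.106), while Cldn2 was at -0.30 and Cldn4 at 0.21. The list includes Cdx2, at 24.3 CPM in WT replicate 1 against 140 CPM in WT replicate 2. The part of Cdx2 in this scale was not tested.

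The other genes of the pathway gave a background for the 10. Of 17 further claudin symbols 14 were listed and 9 tested, with 0 called by edgeR, 2 above and 2 below WT in both Itch KO libraries (30.0% and 26.0% of all genes) and a median log2 fold change of 0.27. That median rested on single libraries, at 0.02 without WT replicate 2, 0.15 without Itch KO replicate 2, 0.60 without WT replicate 1 and 0.72 without Itch KO replicate 1. Cldn12, the highest of them and known as a claudin linked to paracellular calcium passage, was at 109 and 70.6 CPM in Itch KO libraries, against 127 and 118 CPM in WT libraries (log2 fold change -0.44, SE 0.24, edgeR adjusted p = 0.375), and at -0.79 without Itch KO replicate 1 and -0.15 without Itch KO replicate 2. Cldn1, a sealing claudin abundant in stratified epithelium, was at 3.69 and 3.31 CPM in Itch KO libraries, against 47.0 and 8.15 CPM in WT replicates 1 and 2 (log2 fold change -2.98, SE 0.96, edgeR adjusted p = 0.219, DESeq2 adjusted p = 0.0113). The part of squamous genes in the Cldn1 values was not tested. The high value fell in WT replicate 1, the library with the squamous genes. Without it the log2 fold change was -1.20, and of the 4 DESeq2 fits that left out a library 1, without WT replicate 2, called Cldn1. Cldn5, the claudin of blood vessels, was at 17.1 and 44.7 CPM in Itch KO libraries, against 30.6 and 20.7 CPM in WT libraries, and was highest in Itch KO replicate 2, where the endothelial sum was highest too. Its log2 fold change of 0.27 was -0.58 without that library, and 0.80 without Itch KO replicate 1. The part of endothelial genes in the Cldn5 values was not tested.

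**Figure D4:**
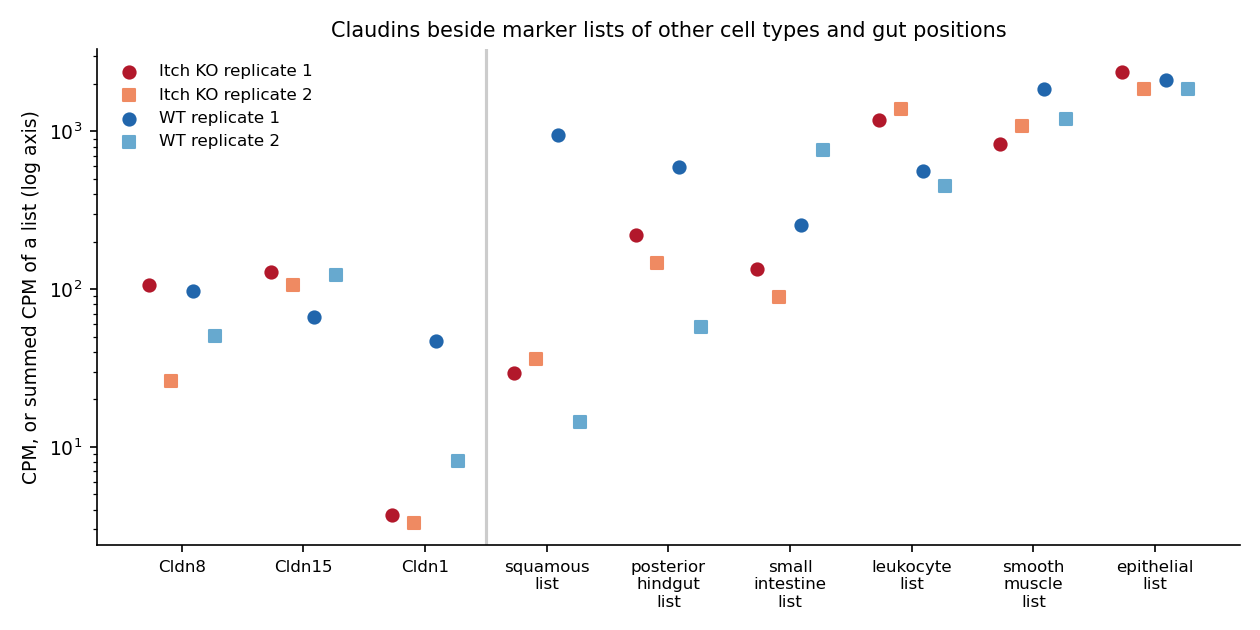
CPM of Cldn8, Cldn15 and Cldn1, and summed CPM of 6 marker lists (vertical log axis), in the 4 libraries, Itch KO in red and left of WT in blue. WT replicate 1 is highest for Cldn1, the squamous and the posterior hindgut list and lowest for Cldn15, and leukocyte genes are higher in both Itch KO libraries.

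Of 10 other membrane proteins of the junction, all tested, 0 were called and 2 lay below WT in both knockout libraries (26.0% of all genes), with a median log2 fold change of -0.0014. Cxadr, a junctional adhesion protein known as a virus receptor, was at 221 and 128 CPM in Itch KO libraries, against 260.3 and 258 CPM in WT libraries (log2 fold change -0.57, SE 0.30, edgeR adjusted p = 0.356). Marveld2, the gene of tricellulin, which seals the corners where cells meet, was at 89.0 and 52.3 CPM in Itch KO libraries, against 93.2 and 102 CPM in WT libraries (log2 fold change -0.47, SE 0.29, edgeR adjusted p = 0.417). Without Itch KO replicate 1 Cxadr was at -1.02 and Marveld2 at -0.90, and without Itch KO replicate 2 they were at -0.22 and -0.12. F11r, the gene of junctional adhesion molecule A, was at 177 and 151 CPM in Itch KO libraries, against 157 and 135 CPM in WT libraries, which overlap.

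Plaque and polarity proteins, the cytoplasmic layer to which Tjp1 belongs, had the lowest median of the pathway lists. Of 17 tested, 14 had negative log2 fold changes, where 8369 of all 16956 genes and 74.4% of genes over 8 kb of exon did. Of the 17, 8 lay below and 1 above WT in both Itch KO libraries (26.0% and 30.0% of all genes). Their median was -0.57, beside 0.01 over all genes. The median was -0.33 without WT replicate 1 and -0.35 without Itch KO replicate 2. edgeR called 0, with 4 lower at an unadjusted p below 0.05 (9.52% of all genes), and DESeq2 called the same 4 lower (4.85% of all genes): Mylk, Magi1, Pard3 and Magi3. Of the 4 DESeq2 fits that left out a library, 3 did not call Magi1, Pard3 or Magi3, those without WT replicate 1, WT replicate 2 or Itch KO replicate 2. Pard3, a polarity scaffold, was at 109 and 75.2 CPM in Itch KO libraries, against 145 and 170.4 CPM in WT libraries (log2 fold change -0.77, SE 0.23, adjusted p = 0.201 in edgeR and 0.0394 in DESeq2). Magi1, a scaffold of the MAGUK family, was at 102 and 69.1 CPM in Itch KO libraries, against 138 and 153 CPM in WT libraries (log2 fold change -0.76, SE 0.23, adjusted p = 0.200 in edgeR and 0.0443 in DESeq2). Magi3, of the same family as Magi1, was at 130.5 and 80.1 CPM in Itch KO libraries, against 213 and 169 CPM in WT libraries. The groups did not overlap for these 3 scaffolds. Without Itch KO replicate 2 Pard3 was at -0.52, Magi1 at -0.50 and Magi3 at -0.54, and with the trend on exonic length removed Pard3 was at -0.37 and Magi1 at -0.49. Afdn, the gene of the actin-binding protein afadin and the highest in level, was at 245 and 164 CPM in Itch KO libraries, against 346 and 303 CPM in WT libraries, a log2 fold change of -0.67 that was -0.40 without Itch KO replicate 2.

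Mylk, the myosin light chain kinase that contracts the actin ring at the junction, was at 161 and 204 CPM in Itch KO libraries, against 379 and 281 CPM in WT libraries (log2 fold change -0.86, SE 0.24, adjusted p = 0.186 in edgeR and 0.0069 in DESeq2). It is also a smooth muscle gene. The 8 smooth muscle genes summed to 825 and 1087 CPM in Itch KO libraries, against 1846 and 1192 CPM in WT libraries. Of the 8, 3 were lower in both knockout libraries (26.0% of all genes) and 5 overlapped (44.0% of all genes). Those lower in both were Myh11, Lmod1 and Synpo2, at log2 fold changes of -1.07, -0.81 and -1.66. Those that overlapped were Actg2, Des, Cnn1, Myl9 and Smtn, at log2 fold changes of -0.07, -0.11, -0.01, 0.02 and -0.51. The part of smooth muscle genes in the Mylk value was not tested. DESeq2 without Itch KO replicate 1, or without WT replicate 1, did not call Mylk, and without WT replicate 1 it called none of the plaque genes.

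Exonic length moved with these values. Over all tested genes the median log2 fold change was 0.24 for 2130 genes of 1 to 2 kb, -0.12 for 2075 genes of 6 to 8 kb and -0.32 for 2636 genes over 8 kb. The plaque genes have a median exonic length of 8777 bases and Tjp1 has 7811 bases, while Cldn3, Cldn4, Cldn7 and Cldn23 have 1259 to 1948 bases. With the trend on length removed from each library, the median of the plaque genes was -0.28, Tjp1 stood at -0.61 (edgeR adjusted p = 0.387), Ocln at -0.62 (edgeR adjusted p = 0.367) and Cldn4 at 0.18. Tjp1 lay below the interquartile range of its length class, -0.50 to 0.15, Ocln below that of genes of 4 to 6 kb, -0.37 to 0.24, and Cldn23 below that of genes of 1 to 2 kb, -0.20 to 0.51.

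**Figure D5:**
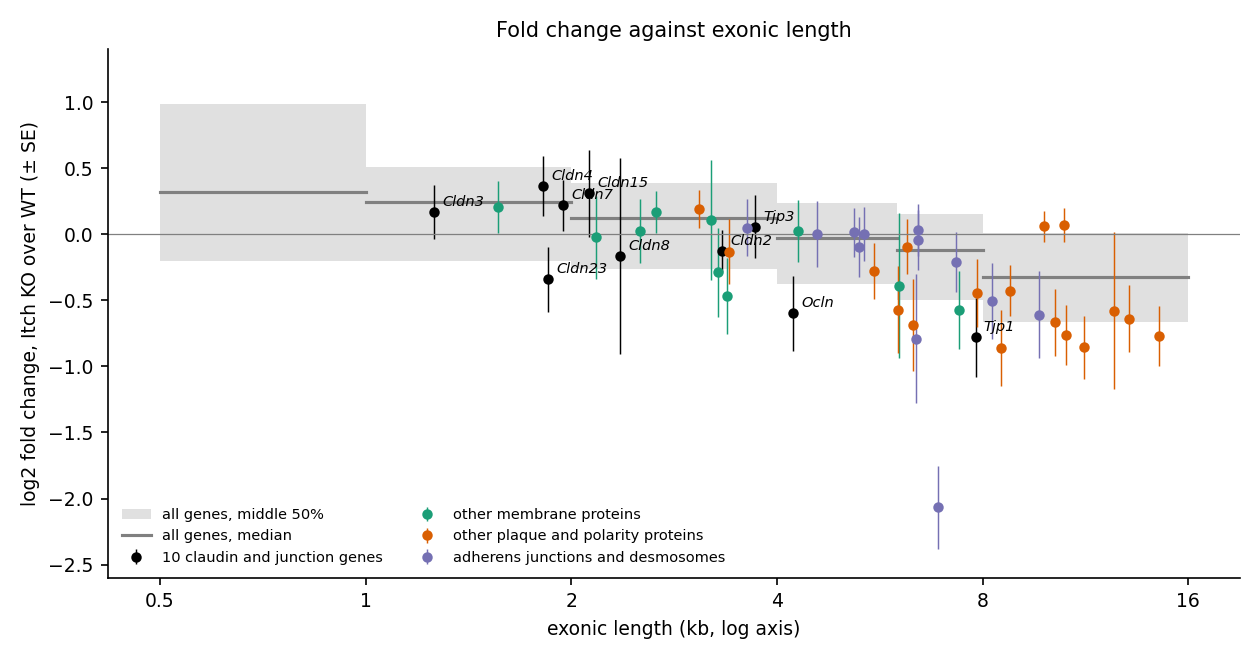
Log2 fold change of Itch KO over WT (vertical axis, points with SE bars) against exonic length in kb (log axis) for the 10 named genes and 3 lists of other junction genes, with the median and the interquartile range of all tested genes per length class in grey. Tjp1, Ocln and Cldn23 lie below the grey ranges and the other 7 of the 10 within them, and the all-gene median falls from 0.32 under 1 kb to -0.32 over 8 kb.

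Adherens junctions and desmosomes, the neighbouring contacts, had a share of genes below WT close to that of all genes. Of 12 genes tested, 0 were called by edgeR, 9 overlapped (44.0% of all genes did), 3 lay below WT in both Itch KO libraries (26.0% of all genes), and the median log2 fold change was -0.07. Dsp, the gene of desmoplakin and the highest in level, was at 428 and 263 CPM in Itch KO libraries, against 598 and 456 CPM in WT libraries (log2 fold change -0.61, SE 0.33, edgeR adjusted p = 0.371), with values of -1.003 when Itch KO replicate 1 was left out, -0.29 when Itch KO replicate 2 was and -0.38 when WT replicate 1 was. Dsg2, a desmosomal cadherin, was at 279.7 and 179.8 CPM in Itch KO libraries, against 363 and 289 CPM in WT libraries, a log2 fold change of -0.50 that was -0.86 without Itch KO replicate 1, -0.31 without WT replicate 1 and -0.21 without Itch KO replicate 2. Ppl, the gene of the desmosome-linked protein periplakin, had the smallest p of the pathway lists, without passing edgeR's test. It was at 24.6 and 21.2 CPM in Itch KO libraries, against 121 and 71.3 CPM in WT libraries (log2 fold change -2.07, SE 0.31, adjusted p = 0.123 in edgeR and 2.35e-06 in DESeq2). The part of squamous genes in the value of Ppl was not tested. Without WT replicate 1, the library with squamous genes, its log2 fold change was -1.62, and DESeq2 called Ppl lower in all 4 fits that left out a library.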

How the data were processed

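Each library has a file of raw gene counts deposited by the authors. GRCm38 and mm10 are the builds named in the submitters' processing notes, and HTSeq 0.6.1, TopHat2, CASAVA 1.8.2 and SAMtools 0.1.19 the tools. Whether counting used strand, and whether duplicates were removed, is not given in these sources. The 19308 genes in all 4 files were used, since WT replicate 1 lists only these. HTSeq summary lines were left out of totals and tests (no feature 18.2% to 23.0%, ambiguous 2.67% to 3.03%, in the 3 files that give them).

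Members were found by symbol, and positions and exonic lengths (union of exons) came from GENCODE M21. Genes passed filterByExpr with a minimum count of 10 (16956 genes), and were tested with edgeR 4.0.16 in R 4.3.3 (quasi-likelihood, robust, TMM, group only, two-sided, Benjamini-Hochberg at 0.05), leaving 2 residual degrees of freedom. The SE is the log2 fold change over the root of F. DESeq2 1.42.0 and limma 3.58.1 (voom) were alternatives, and the code was tested on simulated data. Counting error of the members' counts was 1.88% to 6.29% (SD). The members and lists were chosen with earlier results of these data known. Named genes are the members, and from each pathway list the 3 smallest p values at 5 CPM or more and the highest level; Magi3, Cldn9, Cldn10, Cldn13, Cldn14, Cldn18 and Cldn25 were named after their values were seen, as were single marker genes.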

Additional observations from a re-analysis of the deposited data

How the results depend on the processing

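Over all genes, edgeR's count of 0 higher and 0 lower held in 14 of 15 alternatives; DESeq2 called 889 higher and 807 lower. No alternative on all 4 libraries called a member. DESeq2 called 7 other junction genes, 6 lower and 1 higher, where it called 4.85% of all genes lower and 5.35% higher. The lists of other junction genes held 9, 10, 17 and 12 tested genes. DESeq2 with a library left out called 0 to 2 members and 1 to 10 other junction genes, all lower, where it called 1.83% to 3.40% of all genes lower. The groups share replicate numbers, but deviations of same-numbered libraries correlated at 0.03 across genes. The replicate block gave 0 calls in every count; the pore to sealing difference of -0.06 is the same with the block by arithmetic in this balanced design, which tests nothing. The difference was -0.09 on counts without length, 0.07 on mean log2 levels, -0.0037 with Cldn7 and Cldn23 added, and -0.53 to 0.41 with a library left out.

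Signs changed, always without a call; the cause was not tested. Leaving out a library gave -0.29 to 0.030 for Cldn2, -0.043 to 0.81 for Cldn15, -0.056 to 0.37 for Cldn3, -1.50 to 0.53 for Cldn8 (0.40 without WT replicate 1), -0.0069 to 0.42 for Cldn7 and -0.26 to 0.32 for Tjp3 (-0.03 without WT replicate 2). The median of other membrane proteins ran from -0.29 to 0.16 (0.11 without WT replicate 1) and that of adherens and desmosome genes from -0.32 to 0.15 (0.05 without WT replicate 1). On the epithelial scale, whose list includes Cdx2 (low in WT replicate 1), Cldn3 was at -0.0085 and Tjp3 at -0.13. With the length trend removed Cldn3 was at -0.061 and Tjp3 at -0.0086, and with the density trend removed Cldn3 was at -0.072, Cldn7 at -0.00068 and Tjp3 at -0.14. The trend alternatives and DESeq2 fits without a library were chosen after seeing the data. With 2 libraries a group, and a lone library assumed to vary like the other group, a missing call does not show equal levels.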

Other observations

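Claudins at the low end of the counts were not described above. Cldn13, a claudin of rodents, had 21 and 38 counts in Itch KO libraries, against 1 and 0 counts in WT libraries. The ratio of scaled counts was 71.7, with a 95% interval of 12.4 to 2878 that covers counting error only. edgeR gave an adjusted p of 0.13 and DESeq2 one of 0.0343, and no DESeq2 fit with a library left out called it. Cldn9 was at 1.60 and 1.45 CPM in Itch KO libraries, against 0.533 and 0.815 CPM in WT libraries, also without overlap (log2 fold change 1.15, SE 0.54, edgeR adjusted p = 0.328).

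Cldn14 was at 18.7 and 3.20 CPM in Itch KO libraries, against 12.5 and 6.60 CPM in WT libraries, which overlap (log2 fold change 0.20, SE 0.96, edgeR adjusted p = 0.921). Cldn10 was at 4.18 and 7.13 CPM in Itch KO libraries, against 2.88 and 4.24 CPM in WT libraries. Cldn18, a claudin of stomach and lung, had 0 counts in all 4 libraries, where a floor of 3 counts per library is 0.244 to 0.369 CPM. The gene that the files call Cldn25 is named Cldnd1 in GENCODE M21, and it was at 81.7 and 84.1 CPM in Itch KO libraries, against 86.3 and 74.5 CPM in WT libraries.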
